A study of Arabidopsis thaliana with 6 samples.

Results

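The WRKY genes described here were 42 of the 13426 genes in the authors' deposited table of genes with RGA-GFP peaks. They were chosen by the word WRKY in the short description that the table gives each gene. A gene entered that table because at least 1 RGA-GFP library had a peak in its window, so the members were selected on measured peaks. Counts and folds of RGA-GFP peaks over the members are therefore given as a description, with no test.

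WRKY proteins are a plant family of transcription factors that bind a short element, the W-box, in the promoters of their targets. Many act in immunity, downstream of MAP kinase cascades and of salicylic acid, and several regulate each other's genes. Others act in leaf senescence, in responses to abiotic stress, or in the development of embryos, pollen and stems. RGA is a DELLA protein, a nuclear repressor of gibberellin responses that has no DNA-binding domain of its own and reaches chromatin through transcription factors. Some WRKY proteins are known to bind DELLA proteins directly.

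Chromatin immunoprecipitation and sequencing was done on inflorescence apices of Arabidopsis thaliana, accession Landsberg-erecta. The RGA-GFP plants carried RGAp:GFP-rga-delta17, a fusion of green fluorescent protein to an RGA form that gibberellin does not remove, under the RGA promoter. The wild type plants had no GFP and gave the background of the anti-GFP pull-down. Each group had 3 replicates, which the labels call biological. The peaks are therefore those of a stabilized protein, in tissue that mixes many cell types. After removal of duplicates the RGA-GFP libraries held 14644122, 15704296 and 16745139 tags, and the wild type libraries 10014730, 8808462 and 3999159.

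RGA-GFP peaks lay at most, but not all, of the WRKY family. RefSeq names 72 Arabidopsis genes WRKY by symbol or synonym, and 45 of them (62.5%) had a row in the authors' deposited table, against 46.1% of RefSeq protein-coding genes. A pooled peak, one called in the combined RGA-GFP libraries over the combined wild type libraries, was listed for 30 of the 72 (41.7%), against 29.7% of protein-coding genes. The 3 family genes in the table that the description missed were WRKY1, WRKY63 and WRKY19. In the authors' deposited table WRKY63 (also ABO3, an abscisic acid regulator) had a pooled fold of 2.55, above every member, and WRKY1 (also ZAP1) one of 2.30, above every member but WRKY27. WRKY19 was in 1 replicate list and had no pooled peak. The other 27 family genes, WRKY12 and WRKY22 among them, had no row in the table used here. Peaks of the RGA-GFP lists overlapped the gene itself for 2 of these 27, WRKY22 and WRKY54. The same was true of 459 of the 14802 protein-coding genes without a row (3.10%).

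Within the table the WRKY genes had peaks about as often, and about as strong, as other genes. The authors' deposited table placed 30 of the 42 members in 3 replicate lists, 6 in 2 lists and 6 in 1 list. The share in 3 lists was 71.4%, against 65.4% of the 12813 protein-coding genes of the table. Counted again from the peak lists at the authors' q, the order turned, with 64.3% of members and 66.2% of protein-coding genes. Pooled peaks gave a like picture. One was listed for 28 members (66.7%), against 64.6% of protein-coding genes in the table. A pooled fold of at least 2 was reached by 6 members (14.3%), against 11.5%. The median pooled fold of the 28 members was 1.80 (quartiles 1.65 and 1.94), and that of protein-coding genes with a pooled peak was 1.74 (quartiles 1.60 and 1.92). The gap was wider in significance than in fold. A −log10 q of at least 10 was reached by 12 members (28.6%), against 19.3% of protein-coding genes of the table. The windows of the members were longer than most, with a median of 5206.5 bp against 4285 bp. Of protein-coding genes with a window at least as long as the members' median, 69.2% had a pooled peak. Window length therefore moved with the share of genes with a peak, and its part in the members' counts was not tested.

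The number of replicate lists and the pooled peak went together. Of the 30 members in 3 lists, 26 had a pooled peak (86.7%, against 86.1% of protein-coding genes in 3 lists). Of the 12 members in 1 or 2 lists, 2 had one (16.7%, against 24.1%). These 2 were WRKY13 and WRKY26, a gene of the heat response. Of the 6 members that the table placed in 1 list, 5 (WRKY8, WRKY13, WRKY20, WRKY62 and WRKY75) had their peak in RGA-GFP replicate 2, which gave the longest list with 11116 peaks. The authors required a −log10 q of 3 in a replicate list. The member nearest to leaving the table was WRKY62, a gene of the salicylic acid response, whose single peak had a −log10 q of 3.48. A peak of WRKY45 with a −log10 q of 3.38 in replicate 1 gave that gene its second list. No replicate peak below the limit lay in a member's window. Family genes without a row were not checked in this way.

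**Figure D1:**
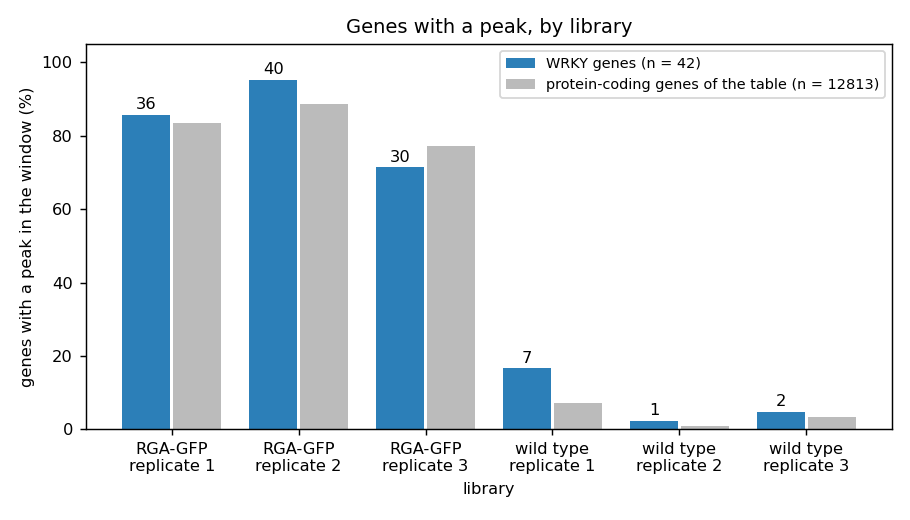
Share of genes with a peak in their window (%) for each of the 6 libraries, for the 42 WRKY genes (blue, number of genes above the bar) and for the 12813 protein-coding genes of the authors' table (grey). The 3 RGA-GFP libraries gave a peak at 36, 40 and 30 WRKY genes, and the wild type libraries at 7, 1 and 2.

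By library, RGA-GFP peaks lay in the windows of 36, 40 and 30 members, as the plot of shares by library shows. The shares were 85.7%, 95.2% and 71.4%, against 83.5%, 88.8% and 77.1% of protein-coding genes of the table. Wild type peaks lay in 7, 1 and 2 windows. A gene entered the table through an RGA-GFP peak, so higher RGA-GFP counts follow from the selection and are not read as a result. RGA-GFP libraries were also deeper, and the part of depth in this difference was not tested. Counting peaks from the lists gave the number of lists in the table for 38 of the 42 members. The share was 90.5%, against 94.8% of protein-coding genes of the table. WRKY9, WRKY14 and WRKY43 had peaks in 2 lists where the table has 3, and WRKY64 in 2 where it has 1.

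Each fold is a ratio computed by the authors, of the tag pileup at the summit to a local background. In a replicate list that background is the library's own, and in the pooled list it is the combined wild type, so both kinds of fold are not on one scale. Values below are those of the strongest pooled peak of a gene, or of its strongest replicate peak where it has no pooled peak. Across the 24 members whose strongest pooled peak was found in all 3 replicate lists, the mean replicate fold had a median of 2.65 (quartiles 1.86 and 3.01). The strongest pooled peaks of protein-coding genes had a median of 2.34 (quartiles 2.03 and 2.77), so the members spread more widely. RGA-GFP replicate 3 gave the lowest fold at 20 of the 24 members, as it did at 76.3% of all pooled peaks found in 3 lists.

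**Figure D2:**
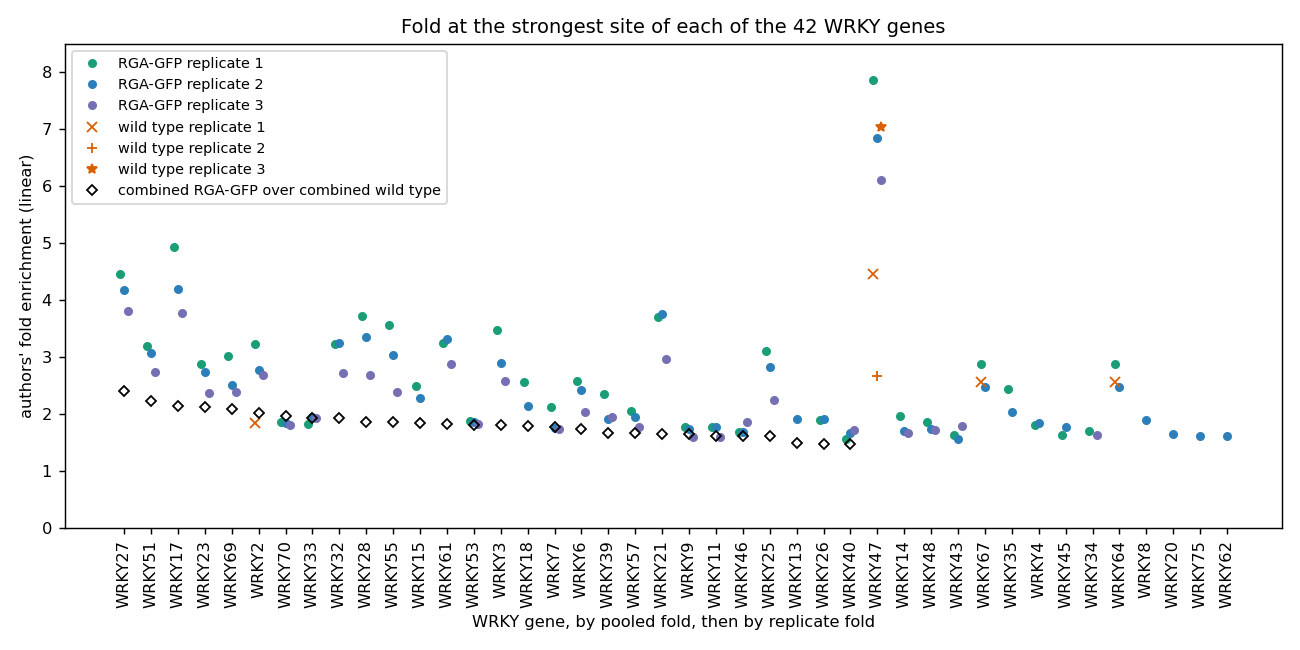
Authors' fold enrichment (linear scale) at the strongest site of each WRKY gene, with 1 circle for each RGA-GFP replicate, orange signs for wild type peaks that overlap the site, and open diamonds for the pooled fold over the combined wild type. Genes without a diamond have no pooled peak. WRKY47 stands above all others in RGA-GFP and has wild type peaks at the same site.

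Among the defence genes, 14 of the 24 on the list fixed for this role were members, and WRKY19 was in the table as well. The share in the table was 62.5%, as in the whole family, against 46.1% of RefSeq protein-coding genes. Of these 15 genes, 11 were in 3 lists (73.3%, against 65.4% of protein-coding genes of the table) and 10 had a pooled peak (66.7%, against 64.6%). The median pooled fold of the 10 was 1.86, against 1.74, so the defence genes were near the general level. WRKY27, which affects the response to bacterial wilt, had the highest pooled fold of the members, 2.41 (−log10 q 24.7). Its site lay 1691 bp upstream of the gene, at chr5:21408811-21409334 (TAIR10), and no other listed window held it. The replicate folds were 4.46, 4.18 and 3.80 (mean 4.15 ± 0.33, SD, n = 3). These ranked 180 of 10636, 175 of 11116 and 120 of 9343 peaks in the lists, so all 3 libraries placed the site near the top.

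WRKY51, which acts with salicylic acid in repressing jasmonate responses, followed with a pooled fold of 2.22. Its site at chr5:25907861-25908230 was 219 bp upstream of the gene, with replicate folds of 3.19, 3.07 and 2.73. WRKY17, a negative regulator of basal resistance to bacteria, had a pooled fold of 2.13 at chr2:10437693-10438529, inside the gene. The site of WRKY17 had the highest mean replicate fold of the members with a pooled peak. Its replicate folds were 4.94, 4.20 and 3.77 (mean 4.30 ± 0.59, SD, n = 3). A second pooled peak inside WRKY17, with a fold of 1.73, lay at chr2:10439050-10439533.

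WRKY70 and WRKY33 looked different from these. WRKY70 links salicylic acid and jasmonate signalling, and WRKY33 is needed for camalexin synthesis and resistance to Botrytis. The pooled peak at WRKY70 was 2585 bp long (chr3:20908174-20910758) with a fold of 1.96. The one at WRKY33 was 2817 bp long (chr2:16108397-16111213) with a fold of 1.93. Both peaks had their summit inside the gene and low folds that hardly differed between libraries. The replicate folds were 1.85, 1.84 and 1.81 at WRKY70, and 1.82, 1.95 and 1.93 at WRKY33. The 1.95 of replicate 2 came from a peak under the part of the pooled peak that ran past WRKY33's window. Inside the window the strongest replicate 2 peak had a fold of 1.89. WRKY53, a regulator of leaf senescence, had a like pooled peak of 1754 bp, with replicate folds of 1.87, 1.86 and 1.82. The length was not seen in every library, and at WRKY33 it was seen in none. In replicates 1 and 3 no peak in the window of WRKY53 was longer than 640 bp. In the window of WRKY33 each library had 2 peaks, the longer ones of 807, 1387 and 1314 bp. A site upstream of WRKY53 had replicate folds of 2.09, 1.87 and 1.99 and no pooled peak. WRKY70, WRKY33 and WRKY53 held no wild type peak anywhere in the window. Of the members' 28 strongest pooled peaks 5 were at least 1000 bp long (17.9%), against 9.02% for protein-coding genes. The other 2 were at WRKY57 (1433 bp) and WRKY32 (1058 bp).

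The remaining defence genes had lower pooled folds or no pooled peak. WRKY3 had a pooled fold of 1.80, WRKY18 of 1.78, WRKY7 of 1.77, WRKY11 of 1.62 and WRKY40 of 1.46 in the authors' deposited table. The replicate folds did not follow this order. WRKY3 had 3.47, 2.89 and 2.57, above WRKY70 and WRKY33, and WRKY40 had 1.56, 1.67 and 1.72, below both. WRKY18 and WRKY40 are close relatives that act together in the response to powdery mildew. WRKY48, a repressor of basal resistance, was in 3 lists with no pooled peak, WRKY4 in 2 lists, and WRKY8 and WRKY62 in 1.

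On the senescence list, 6 of 7 genes were members (85.7%, against 46.1% of RefSeq protein-coding genes with a row), a list too small to read a share from. Of the 6, 4 had a pooled peak (66.7%, against 64.6% of protein-coding genes of the table), a share near the general one. In the authors' deposited table WRKY55 had a pooled fold of 1.85, WRKY53 of 1.80, WRKY6 of 1.73 and WRKY57 of 1.66. The pooled peak listed for WRKY55 (chr2:16999835-17000520) overlapped its neighbour WRKY54 and had its summit nearer to that gene. Its replicate folds were 3.55, 3.03 and 2.38. WRKY54, a partner of WRKY70 in senescence, is one of the genes without a row, so the table credits the peak to WRKY55.

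On the growth and development list, 5 of 10 genes were members (50.0%, against 46.1% of RefSeq protein-coding genes with a row). Of the 5, 3 were in 3 lists (60.0%, against 65.4% of protein-coding genes of the table) and 4 had a pooled peak (80.0%, against 64.6%), counts too small to set apart from the rest. WRKY23, an auxin-responsive gene needed in embryo and root, had pooled peaks on both sides. The upstream peak at chr2:19408008-19408672, 1357 bp from the gene, had a pooled fold of 2.12 and replicate folds of 2.87, 2.74 and 2.37. The downstream peak had a pooled fold of 2.00 and lay 988 bp beyond the gene. Its replicate folds were 2.34 in replicate 1 and 2.36 in replicate 2, with no peak in replicate 3. A site inside WRKY23 had replicate folds of 2.48, 2.56 and 2.17 and no pooled peak. WRKY2, which sets zygote polarity, also had a pair of pooled peaks, both upstream. The stronger, at chr5:22777132-22777826 and 2042 bp from the gene, had a pooled fold of 2.01 and replicate folds of 3.23, 2.78 and 2.68. The other lay 87 bp from the gene with a pooled fold of 2.00. WRKY28, which acts in ovules and in salicylic acid synthesis, had 1 pooled peak 788 bp upstream (chr4:10060237-10060684) with a fold of 1.86 and replicate folds of 3.71, 3.36 and 2.68. WRKY34, a pollen gene, was in 2 lists with no pooled peak. Its replicate folds were 1.71 in replicate 1 and 1.62 in replicate 3, at a site whose summit lay inside the neighbouring gene AT4G26450. WRKY10, WRKY12, WRKY36, WRKY44 and WRKY71 had no row in the table used here.

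WRKY12, WRKY13, WRKY45 and WRKY75 encode proteins known to bind DELLA proteins. Of these 4 genes 3 were in the table (75.0%, against 46.1% of RefSeq protein-coding genes) and 1 had a pooled peak (25.0%, against 29.7%). None of the 3 in the table was in 3 lists, and 4 genes are too few to read a share from. WRKY13, which affects stem fibres and flowering time, was in 1 list. Its pooled peak, 458 bp downstream of the gene at chr4:18331955-18332280, had a fold of 1.49, and RGA-GFP replicate 2 gave 1.91. WRKY45, a senescence gene, was in 2 lists, with a peak inside the gene of 1.63 in replicate 1 and 1.76 in replicate 2. WRKY75, which promotes senescence and flowering, was in 1 list, with a fold of 1.61 in replicate 2 at 1516 bp upstream, nearer to AT5G13090 than to WRKY75.

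On the list of abiotic stress and nutrients, 9 of 11 genes were in the table (81.8%, against 46.1% of RefSeq protein-coding genes) and 7 were members. This list too is small. Of the 9, 8 were in 3 lists (88.9%, against 65.4% of protein-coding genes of the table) and 8 had a pooled peak (88.9%, against 64.6%). Their median pooled fold was 1.65, against 1.74. In the authors' deposited table WRKY15, of the salt and oxidative stress response, had a pooled fold of 1.84, WRKY39 of 1.67, WRKY9 of 1.64, WRKY46 of 1.61, WRKY25 of 1.60 and WRKY26 of 1.47. WRKY47, the 9th gene, is described with the wild type peaks. A further 10 members were on no role list, and 4 of these had a pooled peak (40.0%, against 64.6%). WRKY69 was the highest of them, with a pooled fold of 2.09 inside the gene at chr3:21715466-21715904 and replicate folds of 3.02, 2.51 and 2.39. WRKY32 had a pooled fold of 1.92 at chr4:15053718-15054775, 135 bp from the gene, with replicate folds of 3.22, 3.25 and 2.72. WRKY61 had 1.83 and WRKY21 had 1.65.

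Wild type peaks were found in the windows of 7 members (16.7%), against 8.2% of protein-coding genes of the table. Among protein-coding genes with windows at least as long as the members' median the share was 9.93%. Wild type replicate 1, the deepest of the 3, had a peak in all 7 windows. Without it, 2 members remained (4.76%, against 3.50% of protein-coding genes). At the strongest pooled peak itself, 1 of 28 members (3.57%) overlapped a wild type peak, against 5.97% for protein-coding genes.

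WRKY47, which is linked to aluminium tolerance, had the highest replicate folds of the members and no pooled peak. At chr4:743894-744522, 594 bp upstream of the gene, the RGA-GFP folds were 7.87, 6.84 and 6.11, and the site ranked 4, 5 and 5 in the 3 lists. The wild type folds at the same site were 4.45, 2.67 and 7.05. The fold ranges of the groups overlapped, with wild type replicate 3 above RGA-GFP replicates 2 and 3. Scaled to 1000000 tags kept, the summit pileup was 26.7, 23.2 and 20.7 in RGA-GFP and 15.2, 9.08 and 25.0 in wild type, and again the groups overlapped. WRKY47 was the only member with a peak in all 3 wild type lists.

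In the other 6 windows at least 1 wild type peak overlapped an RGA-GFP replicate peak, and in WRKY2 it overlapped the strongest pooled peak. At WRKY2 wild type replicate 1 had a fold of 1.83 under the stronger pooled peak, where RGA-GFP gave 2.68 to 3.23. At WRKY7, a calmodulin-binding defence gene, wild type replicate 1 gave 1.92 and replicate 3 gave 2.44 at a site inside the gene with RGA-GFP folds of 3.59, 3.65 and 3.38 and a pooled fold of 1.73. This was the second of 2 pooled peaks at WRKY7, and the table pairs the higher fold of one with the higher q of the other. At WRKY15 wild type replicate 1 gave 2.51 just downstream of the gene, with no pooled peak at that place. In each RGA-GFP library 1 long peak ran over the gene and this site. Its summit lay near the wild type summit in replicate 3, with a fold of 2.62. In replicates 1 and 2 the summit lay at the upstream edge of the gene, with folds of 2.68 and 2.72. A pooled peak of 1.74, with its summit 41 bp upstream of the gene, lay under these long peaks. WRKY15's strongest pooled peak lay 2711 bp upstream of the gene. Its replicate folds were 2.49 in replicate 1 and 2.28 in replicate 2, with no peak in replicate 3.

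At WRKY11, a relative of WRKY17 with a like role, wild type replicate 1 gave 2.03 inside the gene. Long RGA-GFP peaks of 2.35, 2.07 and 2.09 overlapped it, the first with its summit 132 bp downstream of the gene. Pooled peaks of 1.26 and 1.42 overlapped it as well, each only in part. At WRKY18 wild type replicate 1 had 2 peaks, one of 1.77 inside the gene, where RGA-GFP gave 1.85, 2.03 and 1.97 with no pooled peak, and one of 2.44 downstream that overlapped no RGA-GFP peak. WRKY64 and WRKY67, which neighbour each other, shared a site between them at chr1:24830996-24831462. RGA-GFP folds there were 2.87 in replicate 1 and 2.47 in replicate 2, with none in replicate 3, and wild type replicate 1 gave 2.56, inside that range. The wild type peak counted for the window of WRKY64 and not for that of WRKY67.

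Besides WRKY47, the members in 3 lists with no pooled peak in the authors' deposited table were WRKY14, WRKY43 and WRKY48. Their replicate folds were low. WRKY48 had 1.85, 1.74 and 1.72 at a site 1450 bp upstream, WRKY14 had 1.97, 1.71 and 1.65, and WRKY43, a seed gene, had 1.62, 1.55 and 1.78. The 1.65 of WRKY14 and the 1.55 of WRKY43 came from peaks that overlapped the site but not the window by 50 bp. In wild type, no list had a peak in these 3 windows. The sites of WRKY14 and WRKY43 lay nearer to a neighbour than to the WRKY gene.

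**Figure D3:**
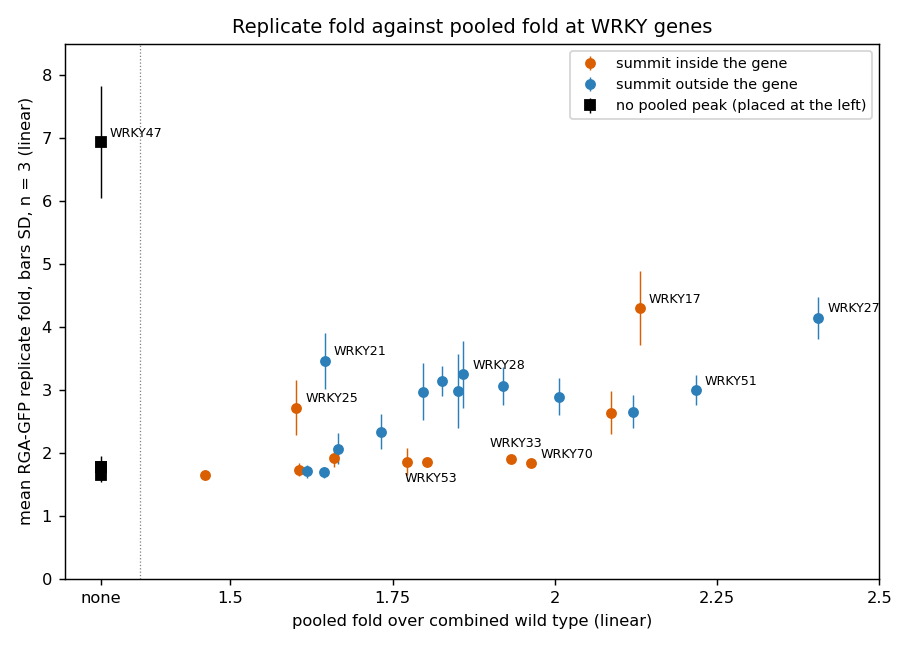
Mean fold of the 3 RGA-GFP replicate lists (linear, bars are the SD, n = 3) against the pooled fold over the combined wild type (linear), for members whose site was found in all 3 lists. Black squares, placed at the left, have no pooled peak. WRKY21 and WRKY25 have high replicate folds for their pooled folds of 1.65 and 1.60, and WRKY70 and WRKY33 the reverse.

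Replicate fold and pooled fold did not order the members alike, as the plot of one against the other shows. Spearman's rho over the 24 members was 0.56, and over all 6281 pooled peaks found in 3 lists it was 0.49. Both measures share the RGA-GFP reads, and genes are not independent replicates. WRKY21 had replicate folds of 3.69, 3.75 and 2.96 and yet 1.65 in the pooled list. The site was 1171 bp downstream, and its summit lay inside AT2G30600. WRKY25, of the heat and salt response, had 3.10, 2.83 and 2.24 but a pooled fold of 1.60. Both windows were free of wild type peaks. WRKY70, with a mean replicate fold of 1.84 ± 0.02 (SD, n = 3), had a higher pooled fold than both.

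**Figure D4:**
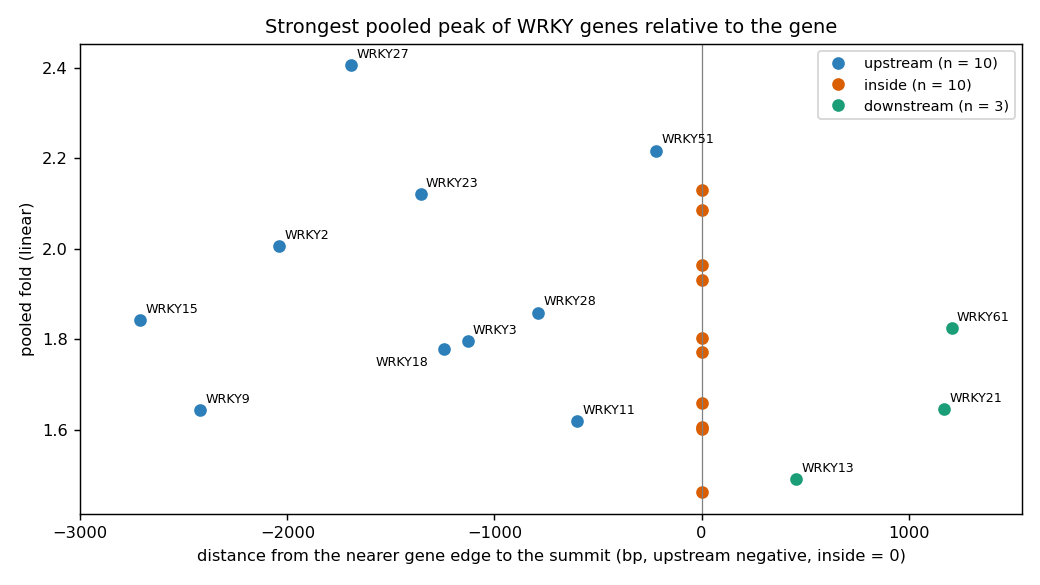
Pooled fold (linear) of the strongest pooled peak of 23 WRKY genes against the distance of its summit from the nearer gene edge (bp, upstream negative, summits inside the gene at 0). The 10 upstream summits lie between 219 and 2711 bp from the gene, and the 3 downstream summits between 458 and 1208 bp.

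The strongest pooled peak of the 28 members lay inside the gene in 10, upstream in 10 and downstream in 3, and in 5 it lay beside a gene whose direction could not be read from its window. The share inside the gene was 35.7%, against 31.8% for protein-coding genes with a pooled peak. The plot of positions shows these upstream summits spread over the window. Weaker pooled peaks of WRKY15, WRKY2 and WRKY18 had summits closer to the gene, at 41, 87 and 90 bp upstream. WRKY40, whose strongest pooled summit lay inside the gene, had a weaker one 47 bp upstream, with a fold of 1.31 and a −log10 q of 1.62. Summits inside the gene had a median mean replicate fold of 1.88 (10 members) and those outside one of 2.98 (14 members). For protein-coding genes these medians were 2.21 and 2.38. Both ranges overlapped, from 1.65 to 4.30 inside and from 1.69 to 4.15 outside, and WRKY17 set the top of the first.

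The member was the nearest gene to the summit in 23 of 28 cases (82.1%), against 63.2% for protein-coding genes with a pooled peak. The 5 exceptions were WRKY2, WRKY9, WRKY21, WRKY26 and WRKY55. In 14 of 28 cases the peak also lay in the window of another listed gene. The same share was not counted for protein-coding genes, so nothing particular to the members is read from it. Of the 28 members, 12 had at least 2 pooled peaks in the window (42.9%, against 28.1%), in windows that were longer than most.

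Genes known to act around WRKY proteins were read from 3 lists with 30 genes. Of 15 genes of salicylic acid synthesis and signalling, 9 were in the authors' deposited table (60.0%, against 46.1% of RefSeq protein-coding genes) and 7 had a pooled peak (46.7%, against 29.7%). The highest was SARD1, an activator of salicylic acid synthesis, with a pooled fold of 2.11. NPR3 and NPR4, salicylic acid receptors, had 1.77 and 1.62, NIMIN1, which binds NPR1, had 1.77, and ICS1, the synthesis enzyme, had 1.60 in the authors' deposited table. NPR1, PAD4 and PR1 had no row in the table used here. Of 10 genes of MAP kinase signalling in immunity, 9 were in the table (90.0%) and 6 had a pooled peak (60.0%). MKK4 and the co-receptor BAK1 each had a pooled fold of 2.10 and MPK3 one of 2.01, while MPK6 had 1.52 in the authors' deposited table. MKK1 and MKK5 were lower still, at 1.34 and 1.32. MEKK1 and MKK2 were each in 1 list with no pooled peak, and MPK4 had no row. The flagellin receptor FLS2 was in 3 lists with no pooled peak, and its window held a wild type peak. Of 5 partners that bind WRKY proteins, 3 were in the table and had a pooled peak (60.0%). These lists were chosen with results known and are small, and nothing particular to them is read from the shares. SIB1, which binds WRKY33, had a fold of 2.31, MKS1 of 1.49 and JAV1 of 1.45 in the authors' deposited table.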

How the data were processed

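Per the submitters' processing notes, Bowtie2, SAMtools and MACS2 2.0.10 were used on the TAIR10 build; the aligner's settings are not given in the sources used here. Per the file headers, tags were extended to 300 bp, and peaks had a q cutoff of 0.05. Each deposited fold is a ratio of tags at the summit to a local background, which comes from the same library in single lists and from all wild type libraries together in the pooled list. The significance is the −log10 of the q value as deposited. The deposited pileup is a signal, the extended tags over the summit. For each gene, the authors' deposited table counts replicate lists (−log10 q of at least 3) and lists the highest pooled fold and −log10 q. Both are read in a window of up to 3000 bp upstream and 1500 bp downstream, with an overlap of at least 50 bp. Some windows were too short to hold both full flanks. The shortest had 1923 bp among members and 4 bp among protein-coding genes of the table.

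Peaks were matched to the same windows by at least 50 bp and to sites by at least 1 bp, with Python 3.11.15 and pandas 2.3.3. The matching was tested on simulated data. Gene direction was read from windows whose one flank exceeded 1500 bp (32 of 42 members). RefSeq (TAIR10.1) gave names, neighbours and distances, and its coordinates are not printed. Samples were grouped by title. No test was run, since the members were selected on peaks. The members, role lists and pathway lists were chosen with earlier results of these data known. Named with full values are the 10 members of highest pooled fold, those with a wild type peak, those in 3 lists without a pooled peak, and those of the DELLA-binding and the growth lists. Other genes, and second peaks and sites given with them, were named after their values were seen. Promoter and protein sequences and W-box letters were not analysed here.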

Additional observations from a re-analysis of the deposited data

How the results depend on the processing

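The count of 28 members with a pooled peak stayed between 27 and 30 when peaks were matched again by 50 bp, by 1 bp or by summit, when pooled peaks overlapping a wild type peak were left out, and when members were taken by RefSeq name (30 of 45). It was 12 at a −log10 q of at least 10 and 6 at a fold of at least 2. With 1 RGA-GFP replicate left out and a peak in both others required, chosen after seeing the data, it was 25 to 26. The count of 30 members in 3 lists was 27 with all peaks of the lists, 27 when recomputed at the authors' q (also chosen after seeing the data), and 18 at a −log10 q of at least 10. It ranged from 28 to 34 with 1 replicate left out and both others required. Under the recomputed count, 64.3% of members and 66.2% of protein-coding genes were in 3 lists, so the order of the shares turned. The count of 7 members with a wild type peak was 7 at a −log10 q of 3 and 8 by 1 bp. It ranged from 2 to 7 with 1 wild type replicate left out, the 2 being without replicate 1. The comparison with genes of long windows was chosen after seeing the data. No paired analysis was possible because no result comes from a test. Wild type libraries were shallower, so a site without a wild type peak may have been below what 3999159 to 10014730 tags could show. Peaks were assigned by window, and 14 of 28 were shared with another listed gene, a share not counted for other genes.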
